A study of Homo sapiens with 3 samples.

Results

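The peaks described here are all those on chromosome 9 in a map of 8-oxo-7,8-dihydro-2'-deoxyguanosine (8-oxodG). They numbered 908 of 23641 in the list, with 211 on the short arm (9p) and 697 on the long arm (9q). The chromosome and the comparison of its arms were chosen with earlier results of these data known. Among these were the low background of 9p and the high density of the end of 9q. The cells were MCF10A, an established human mammary epithelial line that does not form tumours, grown in a medium with horse serum, G0-arrested and given no treatment. One group of 3 samples from 2 experiments was labelled, and the authors deposited 1 peak list for all of them, so no value has an error over samples. Sonicated genomic DNA had been immunoprecipitated with an antibody to 8-oxodG and sequenced. No input DNA or control antibody was analysed here, and no source used here says whether the samples were separate cultures.

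8-OxodG arises when reactive oxygen species attack guanine in DNA. Left in place it can pair with adenine, which turns a G:C pair into T:A at the next round of replication, and cells remove it by base excision repair that starts with the glycosylase OGG1. Chromosome 9 carries a large, variable block of heterochromatin below its centromere, flanked on both sides by duplicated sequence. Its short arm holds CDKN2A in 9p21.3, which encodes the cell cycle inhibitors p16INK4A and p14ARF and is deleted in many tumours and, as described in the literature on the line, in MCF10A. Its long arm ends in 9q34.3, the band of the receptor gene NOTCH1. Genes are placed here by their textbook band only. Their positions on hg18, the build of the files, were not checked, no peak was assigned to a gene, and no sequence of a peak is shown because no hg18 genome was used.

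Each peak came with its width, the number of fragments piled up at its summit (pileup), the authors' fold enrichment and their p and q. The background at the summit, meaning the number of fragments the peak caller expected there, was worked out from pileup and fold enrichment. Over the whole list the median pileup was 25 fragments and the lowest fold enrichment 7.001. A peak over more background therefore needed a higher pileup to be listed, and the number of reads behind the list was not given. Densities are peaks per Mb of sequenced contig. The 95% intervals on single densities are exact Poisson limits and reflect counting error alone. In bulk DNA, fewer copies of a region in the library and less 8-oxodG per copy cannot be told apart.

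The short arm held few peaks for its length, and the long arm slightly more than the rest of the list. On 9p there were 4.56 peaks per Mb (95% interval 3.97 to 5.22, 46.3 Mb of sequence), on 9q 9.43 (8.75 to 10.2, 73.9 Mb), and on all other arms 8.38. Windows of 1 Mb on 9p held between 0 and 16 peaks with a median of 4, and those on 9q between 0 and 33 with a median of 7, so the windows of the arms overlapped. In a quasi-Poisson model across the windows of the genome (n = 2844, of which 75 on 9q and 47 on 9p) the density on 9q was 2.06 times that on 9p (95% interval 1.47 to 2.89, Benjamini-Hochberg adjusted p = 0.000153 over 12 contrasts). In the same model (n = 2844 windows) the density on 9p was 0.546 times that on the other arms (0.405 to 0.736, adjusted p = 0.000173), and 9q did not differ detectably from them (1.12 times, 0.953 to 1.33, adjusted p = 0.220). Without the 7 arms of raised background, left out after the data were seen, 9q did (1.22 times, n = 75 windows on 9q, adjusted p = 0.0150). Leaving out these arms lowered the density of the reference, and the ratio of 9p to it rose as well, to 0.592. These p-values measure the spread between windows within 1 list. Counts of neighbouring windows, each less the count given by the mean density of its place (9p, 9q or other arms), were alike. Pearson's r was 0.609 over 2803 neighbouring pairs and 0.460 over the 120 pairs on chromosome 9, as descriptions. This likeness makes the p-values too small. With windows of 5 Mb, 15 on 9q and 9 on 9p, and the spread taken over all windows, the adjusted p was 0.0348 for 9q against 9p and 0.0439 for 9p against other arms.

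Among 42 chromosome arms with peaks, 9p had the lowest density, followed by 4q at 5.35 peaks per Mb, and 9q ranked with 12 arms above it. Of the 18 chromosomes with at least 5 Mb of sequence on each arm, chromosome 9 was the one whose arms differed most. Its ratio of long to short arm was 2.07, against 0.600 on chromosome 4 and 0.661 on chromosome 10, the next furthest apart, where the short arm was the denser. Taken as a whole, chromosome 9 had 7.56 peaks per Mb, with 13 of 23 chromosomes above it.

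**Figure D1:**
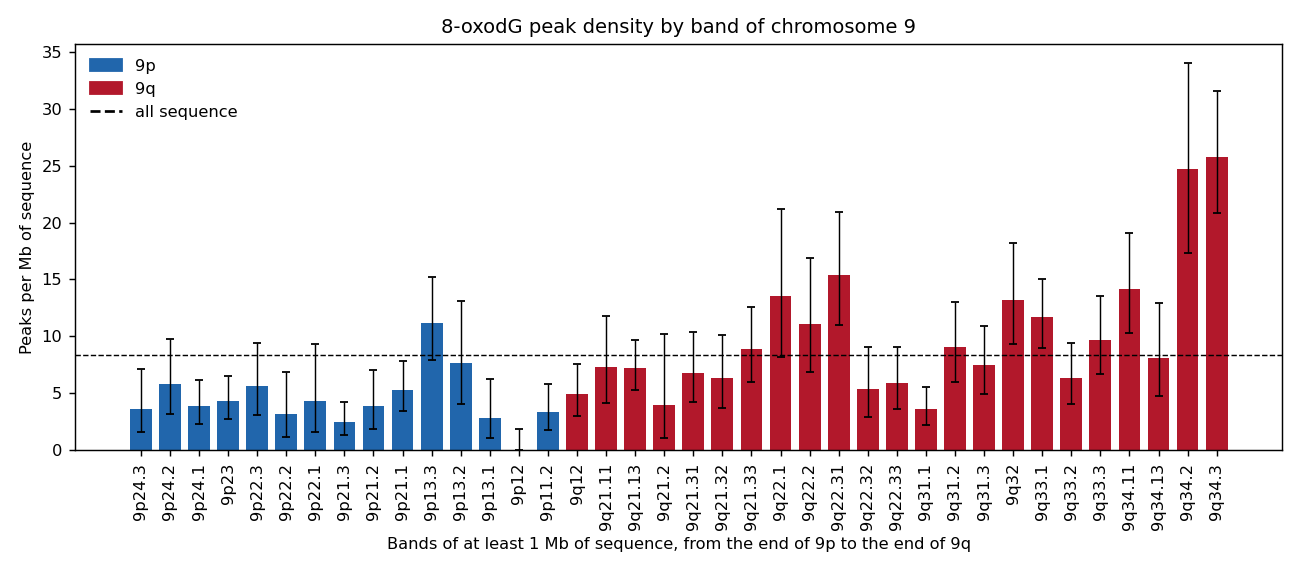
Peaks per Mb of sequence (vertical axis) in the bands of chromosome 9 with at least 1 Mb of sequence, in order from the end of 9p to the end of 9q, with exact 95% Poisson intervals as error bars and the density of all sequence, 8.35, as a dashed line. Of the 9p bands, 9p13.3 alone stands above the line, and 9q34.2 and 9q34.3 stand highest at 24.7 and 25.8.

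Band by band, 9p was low along nearly all of its length. Of its 15 bands with at least 1 Mb of sequence, 14 lay under the density of all sequence, 8.35 peaks per Mb. So did 12 of 23 such bands of 9q, and the share of all bands under it is not given here. In 10 of the 15 bands of 9p the whole interval lay below that density, where this was so in 26.8% of 762 such bands in the genome. In 0 of the 15 did it lie above, against 18.4% of the 762. From 9p24.3 to 9p21.1, 10 bands in a row, there were 136 peaks in 32.8 Mb, or 4.15 per Mb (3.48 to 4.90), with single bands between 2.50 and 5.83.

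The terminal band 9p24.3, home of the sex determination gene DMRT1, had 8 peaks (3.64 per Mb, 1.57 to 7.17) and was the lowest of 41 terminal bands in the genome. The next, 3p26.3 at 3.75 and 18p11.32 at 4.14, lay close to it and within its interval. In 9p24.1, the band of the cytokine signalling kinase JAK2, 17 peaks gave 3.86 per Mb. The exception was 9p13.3, which holds VCP, an ATPase of protein quality control. It had 39 peaks, or 11.14 per Mb (7.92 to 15.2), and the neighbouring 9p13.2, with the B cell factor PAX5, had 13 (7.65). Together these bands made up 11.24% of the sequence of 9p and held 24.6% of its peaks. Without them the arm had 3.87 per Mb.

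The band of CDKN2A was sparse and its peaks lay over little background. 9p21.3 held 14 peaks in 5.6 Mb, or 2.50 per Mb (1.37 to 4.19), and 8 of 762 bands were lower. The background at its summits ran from 0.46, the lowest value in the list, to 1.26 fragments, with a median of 0.535, against 0.849 on 9p without this band. It was under 0.48 at 7 of the 14 peaks and above the median of the whole list, 1.01, at 3. The share of all peaks under 0.48 is not given here. Under 0.5 fragments lay 15.6% of the peaks of 9p and 6.37% of those of other arms. Pileups ran from 12 to 52 with a median of 17, and 12 of the 14 were under 25, the median of the whole list. The low density of 9p21.3, of 9p12 and of 9p24.3, and the low background of 9p and 9p21.3, were known when these regions were chosen, and are descriptions.

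Along 9p21.3 the peaks stood in loose groups. Coordinates are 1-based on hg18. Toward the chromosome end, 8 peaks lay between 19937376 and 21629664, of which the last (21629180 to 21629664) had 30 fragments over a background of 0.46 and a fold enrichment of 21.2. A stretch of 800219 bp without a peak followed, up to 22429883. Next came only the peaks at 22429884 (18 fragments) and 22664400 (12 fragments), both over a background of 0.472. After them no peak was listed for 1483843 bp, from 22664749 to 24148591, the second longest such stretch of sequence on the chromosome. The next peak beyond it (24148592 to 24149045) was the tallest of the band, with 52 fragments, a fold enrichment of 24.9 and a background of 1.13. In the order of the RefSeq gene table of GRCh38.p14, CDKN2A lies between MTAP and CDKN2B, with DMRTA1 and ELAVL2 beyond CDKN2B. Which of these stretches holds it on hg18 was not determined.

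The long arm rose and fell between dense and sparse blocks. In 6 of its 23 bands of at least 1 Mb the whole interval lay above the density of all sequence, or 26.1% beside the 18.4% of all bands. In 2 it lay below, or 8.70% beside the 26.8% of all bands. The 6 above were 9q22.31, 9q32, 9q33.1, 9q34.11, 9q34.2 and 9q34.3. From 9q21.11 to 9q21.33, which includes the band of the death-associated kinase DAPK1, the density was 7.07 per Mb (5.93 to 8.37). The block from 9q22.1 to 9q22.31, with the kinase gene SYK and the Wnt receptor gene ROR2, had 80 peaks in 5.9 Mb (13.6, 10.8 to 16.9). Median background there was 1.21 fragments, and 1.73 in 9q22.2. Of the long arm's bands with at least 1 Mb, the lowest was 9q31.1, which holds the cholesterol exporter ABCA1, with 20 peaks in 5.6 Mb (3.57, 2.18 to 5.52). Farther out, 9q32 and 9q33.1, the latter with the genes of the lipopolysaccharide receptor TLR4 and the matrix protein tenascin C (TNC), had 99 peaks in 8.1 Mb (12.2, 9.93 to 14.9).

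The dense end of the long arm was 9q34. Its 5 bands made up 14.4% of the sequence of 9q and held 28.1% of its peaks, at 18.4 per Mb (15.9 to 21.2). The remainder of 9q had 7.92 per Mb (7.24 to 8.65). The densest were 9q34.2, the band of the ABO blood group gene, with 37 peaks in 1.5 Mb (24.7, 17.4 to 34), and 9q34.3 with 94 in 3.64 Mb (25.8, 20.8 to 31.6), which ranked 24 and 20 among 762 bands. Between them and the dense 9q34.11 (14.2), 9q34.13 was near the density of all sequence at 8.10 (4.72 to 12.96). The 5 windows of 1 Mb with most peaks were all in 9q34. They held 33 (from 137 Mb), 28 (from 136 Mb), 26 (from 135 Mb), 22 (from 131 Mb) and 21 (from 132 Mb). The high density of 9q34.3 was known when the chromosome was chosen, so the density and rank of that band are descriptions. The band also counts toward 9q in the contrast of the arms. With 9q34 left out, 9q was 1.74 times as dense as 9p (1.22 to 2.48, n = 64 windows on 9q and 47 on 9p, adjusted p = 0.00406), and stood at 0.951 times the other arms (0.784 to 1.15, adjusted p = 0.612). That comparison kept 9p21.3, 9p12 and 9p24.3, whose low density was also known beforehand, so it is not independent of the choice. With only 9p21.3 left out the ratio of 9q to 9p was 1.94.

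**Figure D2:**
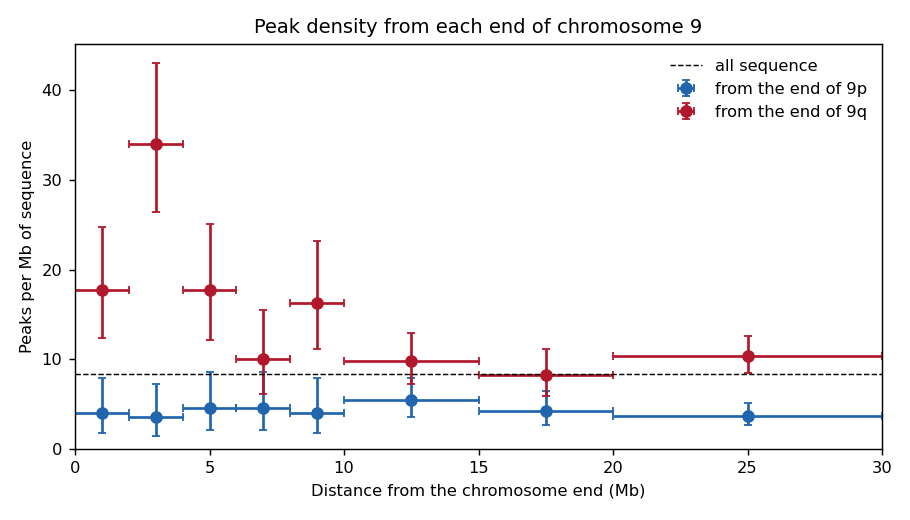
Peaks per Mb of sequence (vertical axis) by distance from the chromosome end in Mb (horizontal axis), for 9p and 9q, with horizontal bars for the width of each bin, exact 95% Poisson intervals as vertical bars and the density of all sequence as a dashed line. Bins of 9p stay between 3.5 and 5.4, while the highest bin of 9q, at 34, lies 2 to 4 Mb from the end.

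Toward the chromosome ends the density was flat on 9p and high on 9q. In the outermost 2 Mb it was 4 per Mb on 9p (1.73 to 7.88, 8 peaks) and 17.8 on 9q (12.4 to 24.7, 35 peaks). On 9q the maximum lay farther in, at 2 to 4 Mb from the end, with 68 peaks or 34 per Mb (26.4 to 43.1). It was 17.8 again at 4 to 6 Mb and 10 at 6 to 8 Mb. On 9p no bin out to 30 Mb exceeded 5.4. The bin of 9q at 2 to 4 Mb also had the highest median background of the bins on that arm, 1.31 fragments, against 0.944 in its outermost 2 Mb. The part of background in the result was not tested.

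The low density of 9p was seen in bands of either Giemsa stain. Giemsa marks gene-poor, late-replicating bands as dark. Dark bands (classes gpos75 and gpos100) made up 33.3% of 9p, 14.8% of 9q and 32.3% of the other arms. Dark bands of 9p had 3.96 peaks per Mb (3.03 to 5.09) and those of other arms 5.81 (5.66 to 5.98). The lighter bands (gneg, gpos25 and gpos50) had 4.79 on 9p (4.04 to 5.63), 10.1 on 9q (9.30 to 10.9) and 9.61 on other arms (9.47 to 9.75). The lighter bands of 9p thus lay below the dark bands of 9q, which had 7.52 (5.98 to 9.34). On 9q the pair of dark bands differed, with 3.57 in 9q31.1 (gpos100) and 11.7 (8.97 to 14.997) in 9q33.1 (gpos75).

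Peaks on 9p were also narrower and lower. Median width was 404 bp on 9p (quartiles 332 and 490.5) and 463 bp on 9q (363 and 616). Median pileup was 18 fragments on 9p (14 and 28) and 25 on 9q (16 and 41). Median fold enrichment was 10.1 (8.41 and 14.6) and 11.8 (8.75 and 17.7), in the same order. The quartile ranges of the arms overlapped for each measure. In linear models of the mean log2 value per window, with n = 73 windows on 9q and 44 on 9p, widths on 9q were 1.19 times those on 9p (95% interval 1.09 to 1.29, adjusted p = 0.000153). Over the same windows (n = 73 and 44) pileups were 1.28 times as high (1.14 to 1.45, adjusted p = 0.000153), and fold enrichments 1.12 times (1.03 to 1.21, adjusted p = 0.00787). Each of these was also lower on 9p than on other arms. The ratio was 0.865 for width (0.804 to 0.930, n = 44 windows on 9p, adjusted p = 0.000187). For pileup it was 0.765 (0.689 to 0.851, n = 44 windows on 9p, adjusted p = 9.25e-06). For fold enrichment it was 0.880 (0.820 to 0.944, n = 44 windows on 9p, adjusted p = 0.000677). The low background of 9p was known beforehand. A peak over less background could be listed at a lower pileup, so the lower pileup of 9p was in part built in. On 9q none of the 3 differed detectably from other arms, with ratios of 1.03 (0.987 to 1.07), 0.982 (0.926 to 1.04) and 0.987 (0.949 to 1.03) and adjusted p of 0.229, 0.541 and 0.541. With windows of 5 Mb the adjusted p was larger, at 0.0341 for both width and pileup of 9q against 9p. For 9p against other arms it was then 0.0341 for width, 0.0318 for pileup and 0.0341 for fold enrichment. The difference in fold enrichment between the arms missed the threshold with windows of 5 Mb, where the adjusted p was 0.0542 over 15 and 9 windows. It also did so among peaks of at least 20 fragments (ratio 1.02, n = 71 and 34 windows, adjusted p = 0.749) and among peaks of fold enrichment of at least 10 (1.08, n = 71 and 38 windows, adjusted p = 0.128). Fold enrichment on 9p against other arms missed it among peaks of at least 20 fragments (0.964, n = 34 windows on 9p, adjusted p = 0.542). With background as a covariate, the difference in pileup between 9p and other arms was smaller (0.902, 0.840 to 0.970, n = 44 windows on 9p, adjusted p = 0.0246).

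**Figure D3:**
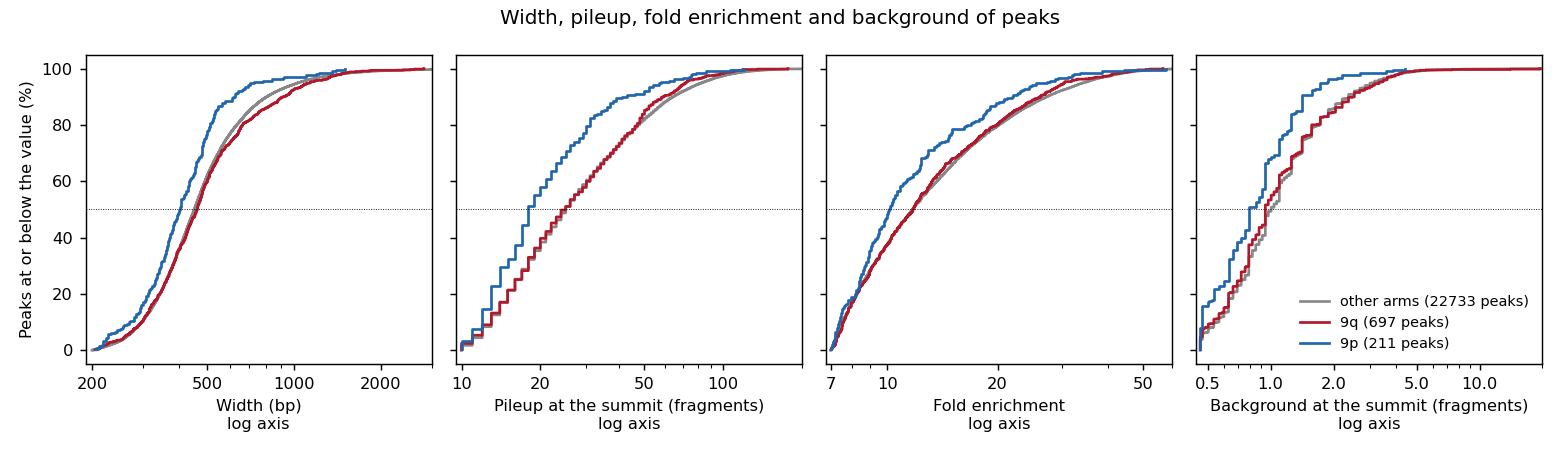
Share of peaks at or below each value (vertical axis, %) of width in bp, pileup, fold enrichment and background in fragments (horizontal log axes), for 9p, 9q and all other arms. The curve of 9p lies to the left in every panel over most of its range, with medians of 404 bp, 18 fragments, 10.1 and 0.786 fragments, and those of 9q and other arms run close together.

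Background at the summit moved with these differences. Its median was 0.786 fragments on 9p (quartiles 0.629 and 1.12), 0.944 on 9q (0.723 and 1.42) and 1.01 on other arms. It was under the list's median in 13 of the 14 bands of 9p with at least 1 Mb and 5 peaks, and in 15 of 22 such bands of 9q, beside 66.8% of 747 such bands in the genome, a share that 9q is near. The lowest background, 0.46 fragments, was found at 17 of 211 peaks on 9p, or 8.06% (exact binomial interval 4.76 to 12.6), and at 32 of 697 on 9q, or 4.59% (3.16 to 6.42), beside 3.82% of all peaks. That share on 9p was the highest of the 42 arms, and the medians of width, pileup, fold enrichment and background on 9p were each the lowest of the 42. Pileup rose with background among the peaks of each arm (Spearman's rho = 0.530 over 211 peaks and 0.564 over 697, descriptions over peaks that share libraries). This relation is in part built in. Background was worked out from pileup, and no listed peak had a fold enrichment under 7.001.

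In classes of peaks by background, median pileups and widths of the arms lay close in the low classes and apart in the high ones. Under 0.5 fragments the median pileup was 13 on 9p (33 peaks), 14 on 9q (57 peaks) and 14 on other arms. From 0.5 to 0.8 it was 16, 18 and 17. From 0.8 to 1.2 it was 19 on 9p (57 peaks) and 23 on both 9q and the other arms, and from 1.2 upward it was 29, 40 and 38. Median widths were 387 bp on both arms of chromosome 9 from 0.5 to 0.8. They were 405, 444 and 430 bp from 0.8 to 1.2, and 509, 617 and 557 bp from 1.2 upward, where the arms were further apart than over all peaks. The class from 1.2 upward has no upper limit, so background still differed between the arms within it. Over all peaks the 90th percentile of background was 1.42 fragments on 9p, 2.48 on 9q and 2.36 on other arms. Median fold enrichment was lower on 9p in every class, with 10.1 against 12.1 on 9q from 0.8 to 1.2. With the mean log2 background of a window as a covariate, added after the data were seen, the ratio of 9q to 9p (n = 73 and 44 windows) was 1.10 for pileup (1.01 to 1.19, adjusted p = 0.0413) and 1.09 for width (1.02 to 1.16, adjusted p = 0.0337). The width of 9p against other arms then missed the threshold (0.949, n = 44 windows on 9p, adjusted p = 0.100). Its pileup (0.902) and fold enrichment (0.900) against other arms still passed. Background was worked out from pileup and fold enrichment. At a given background these measures therefore carry nearly the same information and are not separate results.

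**Figure D4:**
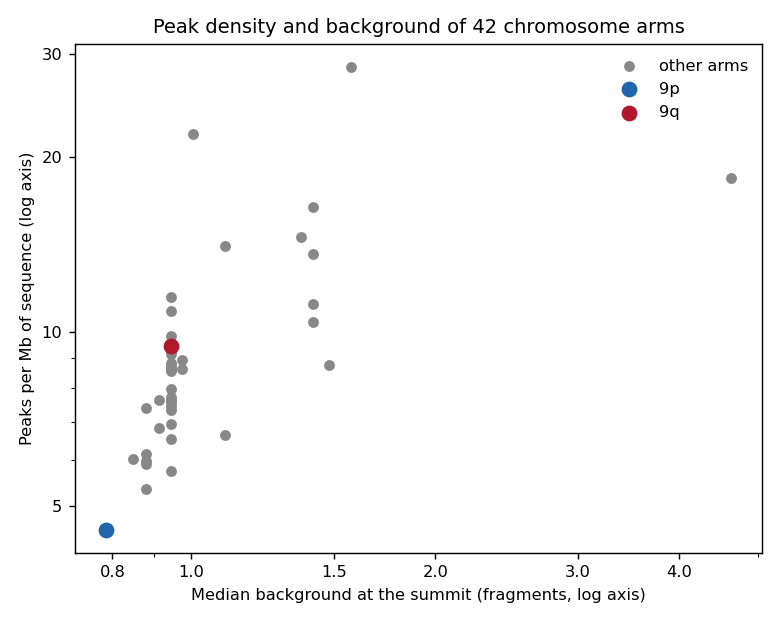
Peaks per Mb of sequence (vertical log axis) and median background at the summit in fragments (horizontal log axis) for 42 chromosome arms, 1 point each, with 9p and 9q coloured. The point of 9p lies at the lowest value on both axes (4.56 and 0.786), and that of 9q at 9.43 and 0.944 among the bulk of the arms.

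In every class of stronger or wider peaks the ratio of densities between the arms was above that of all peaks. Among all listed peaks the density on 9q was 2.07 times that on 9p (exact interval for the ratio of counts 1.77 to 2.42, counting error only). At a pileup of at least 30 fragments, 48 peaks on 9p stood beside 294 on 9q, a ratio of 3.83 (2.82 to 5.32). At a fold enrichment of at least 20 there were 26 and 138 peaks, a ratio of 3.32 (2.17 to 5.27). Among the widths, at 600 bp or more there were 24 peaks on 9p and 186 on 9q, a ratio of 4.85 (3.16 to 7.76), and at 800 bp or more 9 and 97, a ratio of 6.75 (3.41 to 15.2). Peaks of at least 1 kb numbered 6 on 9p, or 2.84% (1.05 to 6.09), and 52 on 9q, or 7.46% (5.62 to 9.67), beside 5.56% of all peaks. The ratio of densities there was 5.43 (2.33 to 15.5), below that at 800 bp, and at a pileup of at least 50 fragments it was 3.72 (2.28 to 6.41), slightly below that at 30. The classes are nested, so these ratios share peaks, and differences between them were not tested.

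**Figure D5:**
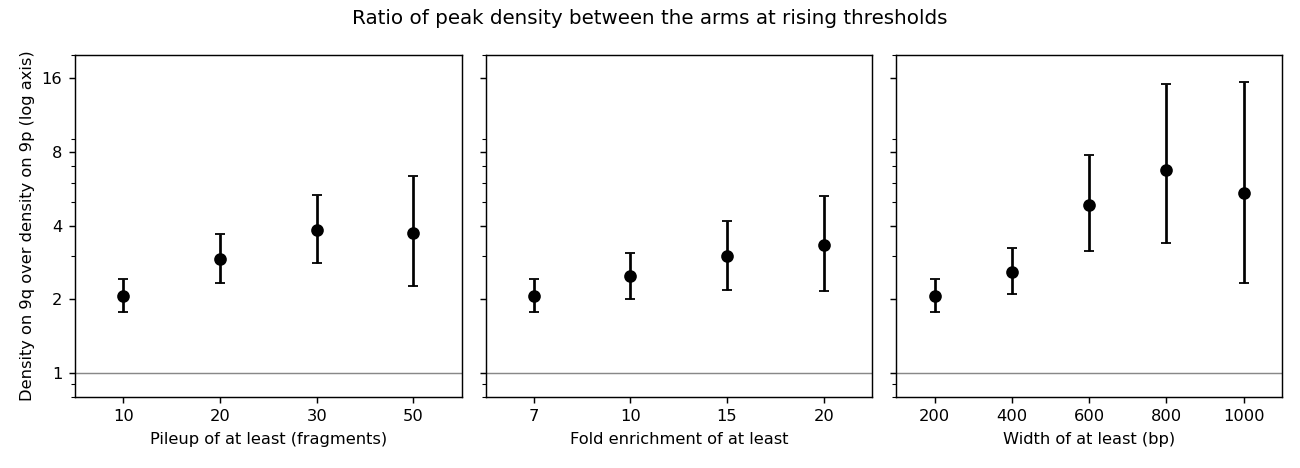
Ratio of peak density on 9q to that on 9p (vertical log axis) among peaks at or above rising thresholds of pileup, fold enrichment and width (horizontal axes), with exact 95% intervals that cover counting error. The ratio is 2.07 for all peaks at the left of each panel and is highest at a width of 800 bp, at 6.75, with 5.43 at 1000 bp.

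Wide peaks gathered in 9q34. Of the 52 peaks of at least 1 kb on 9q, 26 lay in 9q34 and 15 of these in 9q34.3, where they made up 15.96% of 94 peaks. The median width was 642 bp in 9q34.3 and 446 bp on the rest of 9q, the median pileup 29 and 24 fragments, the median fold enrichment 12.1 and 11.7, and the median background 1.10 and 0.944. On 9p the terminal band 9p24.3 had 8 peaks between 264 and 547 bp, none of them wide. The 5 widest peaks of the chromosome were all on 9q. They were a peak of 2818 bp in 9q34.11 (131197140 to 131199957, 119 fragments) and others of 2607 bp in 9q33.2, 2527 and 1851 bp in 9q22.1 and 2383 bp in 9q34.3. All lay over a raised background of 2.67 to 5.19 fragments.

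The strongest enrichment on the chromosome was on the sparse arm. In 9p21.1 a peak of 641 bp (28399682 to 28400322) had 120 fragments over a background of 1.10 and a fold enrichment of 57.6. The other 9 of the 10 peaks with the highest fold enrichment lay on 9q. A peak in 9q34.13 (134442351 to 134442992) reached 56.7 with 102 fragments, and one in 9q22.32 (95620103 to 95620938) 52.0 with 100 fragments. Those in 9q33.1 and 9q31.2 had 50.8 and 48.3. The remaining 5 were in 9q34.13 (47.6), 9q34.3 (47.0 and 45.2), 9q32 (46.4) and 9q34.11 (45.7). In all 10 the background was between 0.786 and 1.42 fragments. On 9p the next strongest were a peak in 9p23 (12452772 to 12453467, fold enrichment 44.3) and one in 9p13.3 (35450225 to 35450715, 38.5).

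High pileup and high enrichment were often different peaks. The highest pileup, 177 fragments, was in the heterochromatin band 9q12 (67908535 to 67909563), over a background of 19.5 and thus with a fold enrichment of 8.68. Another, of 118 fragments in 9q21.11 (71842697 to 71843576), had a background of 13.997 and a fold enrichment of 7.94. By contrast the peak of 135 fragments in 9q33.1 (118304182 to 118305499) had a background of 2.52 and a fold enrichment of 38.7. The other peaks among the 5 highest were those of 120 fragments in 9p21.1 and 119 in 9q34.11.

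Around the centromere the assembly is broken into short contigs, and peaks were few. Between 39703687 and 69975288, 32 contigs with 10.7 Mb of sequence held 37 peaks, or 3.47 per Mb (2.44 to 4.78). The background was at its lowest at 11 of the 37, beside 3.82% of all peaks, and reached 19.5 at 1. In 9p12 there were 0 peaks in 1.95 Mb, which by counting error allows up to 1.89 per Mb. In 9q12, the variable heterochromatin band, 20 peaks gave 4.92 per Mb over a median background of 0.535. How much of this sequence reads could be mapped to was not tested. Without bands 9p12 to 9q13 and the centromeric, variable and stalk bands of other chromosomes, the ratio of 9q to 9p was 2.005 (1.41 to 2.85, n = 70 and 40 windows, adjusted p = 0.000305).

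Spacing followed density. From one peak to the next the median distance was 133630 bp on 9p and 53135 bp on 9q, against 62491 bp over all arms. The longest stretch of sequence without a peak ran from 39097581 to 42405773, from 9p13.1 across 9p12, with 2.96 Mb of sequence. The second was that in 9p21.3. The next were 1.48 Mb between 9q12 and 9q21.11 (69452697 to 71082659), 1.32 Mb in 9q31.1 (103485921 to 104807107) and 1.14 Mb in 9p11.2 (45308720 to 46602495). Windows of 1 Mb without a peak numbered 3 of 47 on 9p and 2 of 75 on 9q, beside 0.774% of all windows. Of these 5, 4 lay in or next to the broken contigs around the centromere and 1 in 9p21.3. Neighbours within 1 kb were 8 pairs on 9p, or 3.81% of its neighbouring pairs, and 18 on 9q, or 2.59%, beside 3.05% over all arms. The largest group was 4 peaks in 9q12 (69025236 to 69027449), and the others on the chromosome were pairs.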

How the data were processed

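One deposited peak list, combining 3 samples of 8-oxodG immunoprecipitated DNA, was analysed. Per the submitters' processing notes BWA, SAMtools, bedtools and build hg18 were used; versions, the peak caller, its control, its settings and the read depth are not stated. Per the file headers the authors gave pileup (a signal in fragments), fold enrichment, and p-value and q-value as −log10. The deposited decimal points of the last 3 were lost and were put back by requiring the Poisson relation between pileup, fold enrichment and p, which all 908 peaks of chromosome 9 met within 0.01. Background is (pileup + 1) / fold enrichment − 1. The restoration and the models were tested on simulated data.

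Bands of hg18 came from circlize 0.4.16 and contigs from IRanges 2.36.0 (R 4.3.3). Peaks were placed by midpoint. Counts in windows of 1 Mb with at least 50% sequence were compared between 9p, 9q and all other arms by a quasi-Poisson model with sequenced length as offset, and width, pileup and fold enrichment by linear models of the mean log2 value per window, weighted by peaks. Tests were two-sided, with Benjamini-Hochberg adjustment over 12 contrasts and a threshold of 0.05. Background was only described. Named regions were the 10 peaks of highest fold enrichment, the 5 widest and the 5 of highest pileup, the peaks of 9p21.3, the 5 fullest windows, the 5 longest stretches without a peak, and bands apart from all sequence. Members, lists and regions were chosen with earlier results of these data known. Genes (16, all on chromosome 9 in the RefSeq table of GRCh38.p14) serve as landmarks of bands. Python 3.11.15, numpy 2.4.6, pandas 2.3.3, scipy 1.17.1 and matplotlib 3.10.9 were used.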

Additional observations from a re-analysis of the deposited data

How the results depend on the processing

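The list has no value per sample, so none was left out, and mappability was not considered. No paired analysis was possible because the deposited list combines the 3 samples of 1 group. The density, pileup and width of 9q against 9p, and the density and pileup of 9p against other arms, kept their direction and passed the threshold in all 13 (density) or 14 alternatives, with ratios of 1.74 to 2.92, 1.10 to 1.28, 1.09 to 1.21, 0.381 to 0.592 and 0.760 to 0.902. Leaving out each of 38 bands of chromosome 9 in turn changed 0 of these calls. For the calls that did change, the cause was not tested.

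Fold enrichment on 9q against 9p was no longer called among peaks of fold enrichment of at least 10 (1.08), of pileup of at least 20 (1.02) and with 5 Mb windows (1.11), and that of 9p against other arms was not with pileup of at least 20 (0.964). Width on 9p against other arms was lost with background as a covariate (0.949). Of the contrasts of 9q with other arms, none of which was called, density turned to 0.951 and width to 0.965 without 9q34.11 to 9q34.3, and width to 0.991 without the terminal bands. Without the 7 arms of raised background, an omission added after seeing the data, density (1.22, n = 75 windows on 9q, adjusted p = 0.0150) and width (1.04, n = 73, adjusted p = 0.0376) of 9q passed the threshold, and pileup and fold enrichment turned to 1.04 and 1.00005. The density of the reference was lower without those arms. By construction, fewer peaks gave 9p21.3 a density of 0.536 (pileup of at least 20) and 9q34.3 densities of 16.2 (fold enrichment of at least 10) and 18.7 (pileup of at least 20).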
